A study of Mus musculus with 21 samples.

Results

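Ribosome biogenesis was followed in mouse colon and colon tumours through 40 genes, the members, chosen by symbol with earlier results of these data known. They include the 45S ribosomal RNA precursor Rn45s and the transcription factor gene Myc. The 38 others are genes for RNA polymerase I subunits, small nucleolar ribonucleoproteins, processing factors of the small and the large subunit, and nucleolar chaperones. The members are 40 of the 24062 genes in the deposited count table. All 40 passed the filter on low counts that left 15936 genes for testing. Total RNA was depleted of ribosomal RNA and sequenced in 21 libraries, 3 in each of 7 groups of C57BL/6 mice. Wild-type males, wild-type females and App NL-G-F knock-in males each gave normal colon and tumour libraries, and knock-in females gave normal colon libraries. The knock-in allele, labelled RBRC06344, places mutations related to Alzheimer's disease in App, the amyloid precursor protein gene. Tumours came from mice given azoxymethane, a carcinogen, and dextran sulfate sodium (DSS), an agent that damages colon epithelium. Normal colon is labelled as non-treated, while the series design speaks of normal tissue beside tumours, and of tumour-free colon where none grew. If the normal colon was not treated, the tumour and the treatment cannot be told apart in these comparisons. The term tumour effect is used below for the difference between tumour and normal libraries, whichever of them it came from. No ages are given, and the labels do not say which libraries come from separate animals, so the p-values measure the spread between libraries, which may be in part technical. The question of the series is why App mutant mice and wild-type mice fared differently under this treatment.

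Ribosome production starts in the nucleolus, where RNA polymerase I transcribes the 45S precursor. Small nucleolar ribonucleoproteins modify the precursor, box C/D particles by methylation and box H/ACA particles by pseudouridylation, while large sets of processing factors cut it and assemble the small and the large subunit. Myc, bound with its partner Max to E-box elements, is known to activate many of these genes, and raised Myc activity is a common feature of colorectal tumours.

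The canonical E-box, CACGTG, which reads the same on both strands, was searched for in windows from 250 bases before to 50 bases after the RefSeq start site. Promoters were matched for 33 members. The motif was present in 7 of the 33 (21.2%), in 2187 of all 27025 genes with a promoter (8.09%) and in 1540 of 16781 such genes in the count table (9.18%). A gene counted once if any of its promoters held the motif. The 7 were Wdr43, Ltv1, Mybbp1a, Utp20, Tsr1, Pes1 and Nop2. In Nop2 the motif lay before the start site, and in the other 6 it lay within the window's last bases, after the start site. The 5 stretches of 30 bases printed here, with the motif in capitals and 5′ to 3′ on the gene's strand, come from 3 genes that were higher in tumours in every comparison (Wdr43, Ltv1 and Mybbp1a) and from 2 genes that were lower in some tumours (Utp20 and Tsr1), all read from RefSeq on GRCm38.p6.
Wdr43, chr17:71616220-71616249, plus strand: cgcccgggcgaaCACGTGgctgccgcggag
Ltv1, chr10:13193092-13193121, minus strand: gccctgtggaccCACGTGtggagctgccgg
Mybbp1a, chr11:72441347-72441376, plus strand: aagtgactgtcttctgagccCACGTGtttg
Utp20, chr10:88826765-88826794, minus strand: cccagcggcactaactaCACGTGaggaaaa
Tsr1, chr11:74898092-74898121, plus strand: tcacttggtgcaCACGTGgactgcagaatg
The motif thus stood beside the start site both of genes that rose and of genes that fell. A match describes these letters and does not show that a factor was bound.

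Levels are given as CPM, counts scaled to a common library size with edgeR's TMM factors, and differences as log2 fold changes with their standard error (SE) from edgeR's quasi-likelihood test, adjusted by Benjamini-Hochberg over 15936 genes with a threshold of 0.05. Library totals ran from 3414123 to 26174008 counts, and no member had 3 counts or fewer in any library. Apart from Rn45s, the members together took between 0.166% and 0.370% of the counts of a library. In wild-type female normal colon, 1 library (replicate 2) stood apart in the 38 members other than Rn45s and Myc. Their median there was 0.03 log2 units above their mean over 21 libraries, where the other 2 libraries of the group lay at -0.49 and -0.41. Other groups also held a library away from the rest. Wild-type male normal replicate 3 lay at -0.44, against -0.09 and -0.07. Knock-in male normal replicate 1 lay at -0.03, against -0.34 and -0.29. Knock-in male tumour replicate 1 lay at 0.05, against 0.35 and 0.28. In App itself, the gene that carries the knock-in mutations, mean CPM was 687 ± 59.7 in wild-type and 573 ± 118 in knock-in male normal colon (SD, n = 3), and a total count does not test for the mutations. All 10 genes that mark epithelium were present in every library.

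Most members were higher in tumours than in normal colon. In wild-type males, 27 of 40 members rose and 2 fell, where 16.5% of all genes tested rose and 19.3% fell, and the median member was 0.59 log2 units higher. In wild-type females 33 rose and 1 fell, against 25% and 24% of all genes, with a median of 0.76. In knock-in males 17 rose and none fell, against 10.4% and 9.97% of all genes, with a median of 0.43. Over all genes tested the median was 0.01 log2 units in each of the 3 comparisons.

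**Figure D1:**
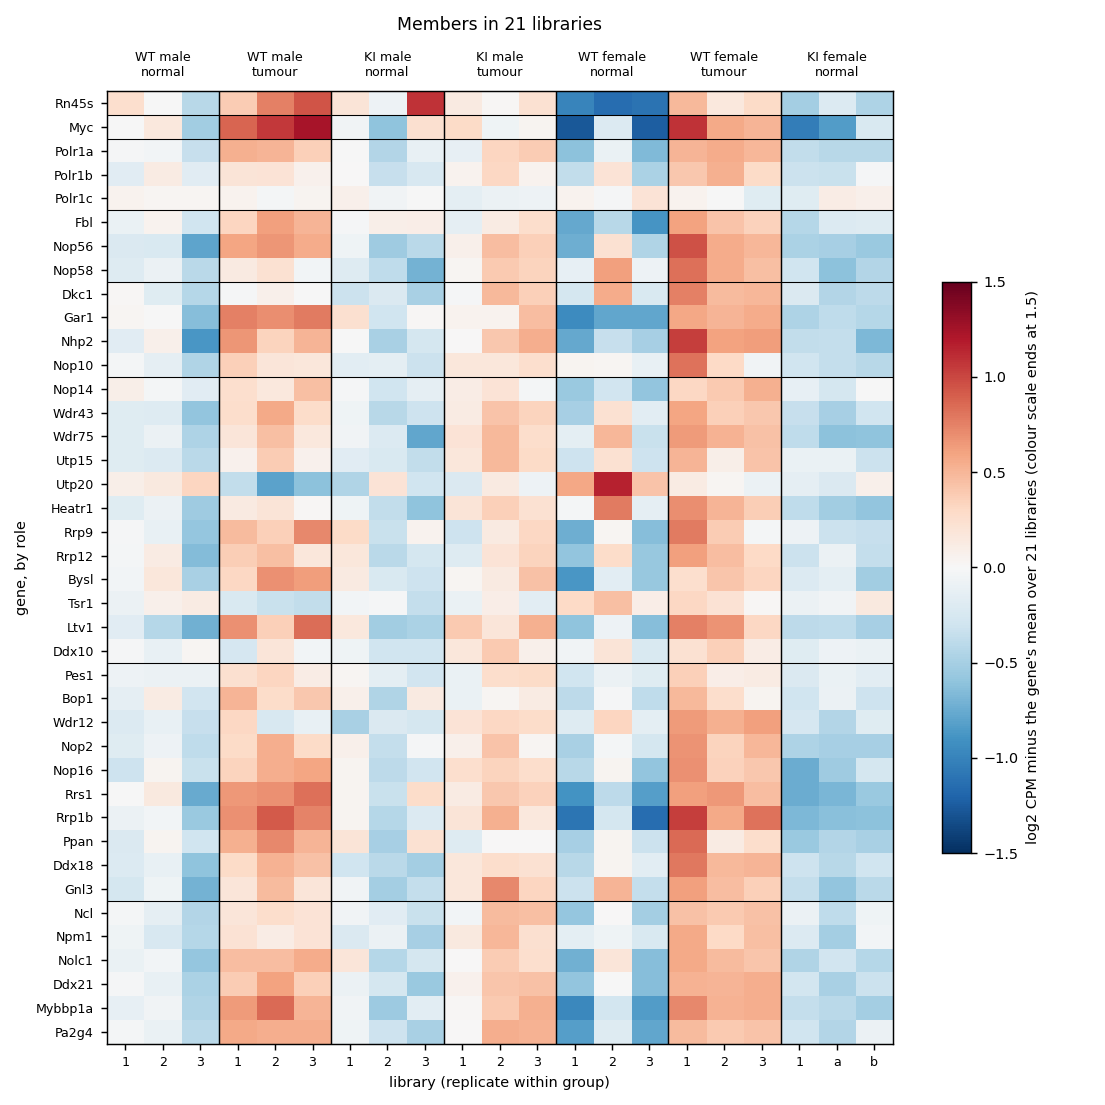
Heat map of the 40 members (rows, by role) in the 21 libraries (columns, by group). Colour is log2 CPM minus the gene's mean over 21 libraries, and the scale ends at 1.5 log2 units. Tumour libraries are mostly red and normal libraries mostly blue, while wild-type female normal replicate 2 is paler or red in many rows and Polr1c is near white throughout.

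The number called in knock-in males was less stable than in wild-type mice. It was 1 when the fit held only the compared groups, 4 without the 3 libraries numbered 152 and above (2 of them wild-type female tumours, 1 a knock-in male tumour), 2 without knock-in male normal replicate 3, 1 without knock-in male tumour replicate 2, and 9 without knock-in male normal replicate 2 or knock-in male tumour replicate 3. In wild-type males it fell from 29 called members to 18 without normal replicate 3. In wild-type females it lay between 25 and 37 whichever library was left out, with 37 called without normal replicate 2.

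Called members were counted across the 3 comparisons. Nop56, Wdr43, Utp15, Ltv1, Ddx18, Npm1, Ddx21, Mybbp1a and Pa2g4 rose in every one of them, 9 of 40 members (22.5%), where 658 of 15936 genes did (4.13%). A further 22 members rose in 2 comparisons and 6 in 1, where 2003 and 2289 of the 15936 genes did. Polr1c, Utp20 and Tsr1 rose in none. There were 16 members, Rn45s and Myc among them, that rose in both wild-type comparisons and missed the threshold in knock-in males. Of the 15936 genes 1580 did so. Another 2 (Heatr1 and Ddx10) rose in knock-in males and in neither wild-type comparison. Of the 15936 genes 576 did so, and these 2 do not set the members apart from other genes. These are counts of calls and not tests of a difference between the tumour effects.

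Markers of other cell types moved in the same comparisons. All 10 smooth muscle markers fell in each of the 3, with medians of -3.91 log2 units (wild-type males), -2.51 (knock-in males) and -4.04 (wild-type females). Their summed level was 3222 to 10686 CPM in wild-type male normal colon and 334 to 975 in tumours, 5175 to 9151 and 1029 to 1276 in knock-in males, and 2220 to 5108 and 270 to 328 in wild-type females. Of 7 markers of differentiated colonocytes, 6, 5 and 7 fell in the same order, and none rose. Of 14 genes of cycling cells, 7, 11 and 14 rose, and none fell. No gene of these 3 lists was at 0 in any library. Of 10 markers of epithelium as a whole, 7, 1 and 9 fell and 1 rose in each comparison, again in that order. Their summed level was 7778 to 10430 CPM in wild-type male normal colon and 6612 to 7012 in tumours, 7702 to 8375 and 6899 to 8357 in knock-in males, and 9707 to 10704 and 5631 to 6786 in wild-type females. Of 6 markers of enteric neurons and glia 4, 1 and 2 fell and none rose, with medians of -2.37, -0.70 and -0.74. Their summed level was at most 23.7 CPM in any library, and 1 of the 6 was at 0 in every wild-type female tumour library. In wild-type female tumours 4 of 6 fibroblast markers rose and 1 fell, and 2 of 4 endothelial markers rose, whereas at most 1 of either list was called in each direction in the males. Fibroblast levels were 1125 to 1368 CPM in wild-type female normal colon and 1757 to 2829 in tumours, and endothelial levels 46.0 to 73.0 and 70.9 to 140 CPM. Of 8 leukocyte markers, 1 rose in wild-type males, 1 fell in knock-in males, and 3 rose and 2 fell in wild-type females. The part of these shifts in the result was not tested, and in pieces of tissue fewer cells of a type and less RNA per cell cannot be told apart.

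Rn45s rose in wild-type tumours of both sexes. Its share of all counts was 4.90%, 6.84% and 8.26% in the wild-type male normal libraries and 9.30%, 11.6% and 13.1% in wild-type male tumours. In wild-type females it was 2.84%, 3.11% and 3.18% in normal colon and 7.96%, 8.58% and 9.998% in tumours. Every wild-type tumour library lay above every normal library of its sex. On the log2 scale Rn45s was 0.74 higher in male tumours (SE 0.24, adjusted p = 0.0207) and 1.40 higher in female tumours (SE 0.24, adjusted p = 0.000106). In knock-in males the shares were 6.59%, 7.81% and 14.1% in normal colon and 6.95%, 7.71% and 8.23% in tumours, so that the groups overlapped, with a difference of -0.36 (SE 0.24, adjusted p = 0.284).

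The knock-in comparison for Rn45s rests on 1 normal library. Without replicate 3, the library at 14.1%, the difference was 0.07. The call in wild-type males was lost without normal replicate 3 (adjusted p = 0.108), tumour replicate 2 (0.0520) or tumour replicate 3 (0.0918). In libraries depleted of ribosomal RNA, counts on Rn45s from the precursor and from mature ribosomal RNA that escaped depletion cannot be told apart.

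Myc was likewise higher in wild-type tumours. It stood at 37.2, 53.1 and 59.5 CPM in wild-type male normal colon and at 97.9, 112 and 126 CPM in the tumours, a log2 difference of 1.16 (SE 0.29, adjusted p = 0.00501). In wild-type females it stood at 22.05, 22.6 and 46.2 CPM in normal colon and at 76.1, 79.0 and 113 CPM in tumours, a log2 difference of 1.57 (SE 0.30, adjusted p = 0.000311). In neither sex did wild-type tumour and normal libraries overlap. Knock-in males had 35.0, 51.4 and 63.1 CPM in normal colon and 51.3, 55.1 and 65.2 CPM in tumours, overlapping ranges whose difference of 0.20 did not pass the test (SE 0.29, adjusted p = 0.644).

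**Figure D2:**
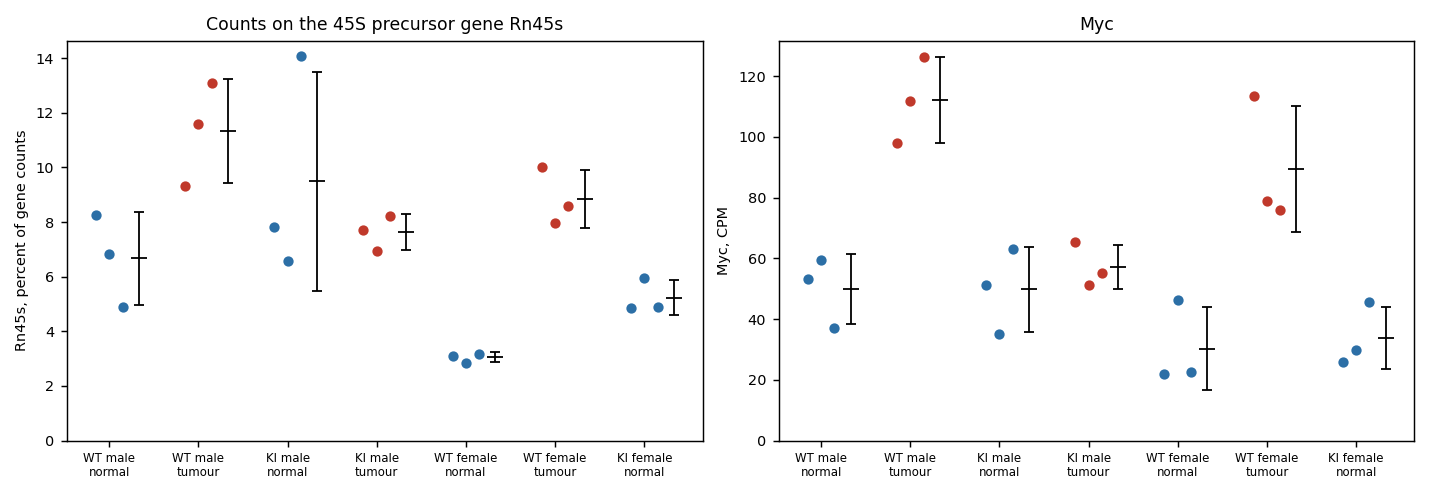
Rn45s as percent of gene counts (left) and Myc in CPM (right), with 1 point per library for 7 groups, blue for normal colon and red for tumour, and bars for the mean ± SD of 3 libraries. Wild-type tumour points lie above the normal points of the same sex, and knock-in male tumour points lie within the range of their normal points or close to it, with 1 knock-in male normal library at 14.1% of counts on Rn45s.

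RNA polymerase I is represented by 3 subunits. Polr1a, the largest subunit and part of the catalytic core, was at 51.0, 63.2 and 64.0 CPM in wild-type male normal colon and at 83.3, 92.8 and 94.0 in tumours, 0.60 log2 units higher (SE 0.15, adjusted p = 0.0061). In wild-type females the values were 41.2, 42.5 and 60.6 against 91.7, 92.6 and 96.0 CPM, a difference of 0.96 (SE 0.16, adjusted p = 6.27e-05). Neither wild-type comparison had overlapping libraries. In knock-in males normal colon had 47.8, 60.1 and 65.0 CPM and tumours 59.5, 81.4 and 84.6, with 1 tumour library among the normal ones and a difference of 0.38 (SE 0.15, adjusted p = 0.0818). Polr1b, the other large core subunit, rose in wild-type females (0.60, adjusted p = 0.00439).

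Polr1c, which RNA polymerase I shares with RNA polymerase III, did not follow. All 21 libraries lay between 27.1 and 35.6 CPM. Its differences were -0.01 (wild-type males), -0.11 (knock-in males) and -0.13 (wild-type females) log2 units, with adjusted p values of 0.965, 0.472 and 0.318 and an SE of 0.10 in each. The direction of these small differences turned with GC and length offsets in the males and with scaling by library totals in the wild-type mice.

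Among box C/D proteins, Nop56, a core scaffold protein, rose in every tumour comparison. It stood at 33.4, 49.5 and 50.04 CPM in wild-type male normal colon and at 85.6, 87.3 and 92.2 in tumours (0.99, SE 0.21, adjusted p = 0.00135). In knock-in males it went from 39.9, 44.0 and 55.5 CPM to 61.1, 74.2 and 80.3 (0.63, SE 0.21, adjusted p = 0.0373). In wild-type females the normal libraries had 35.0, 42.6 and 68.2 CPM and the tumours 81.9, 85.2 and 113 (0.95, SE 0.21, adjusted p = 0.000999). No tumour library of Nop56 overlapped the normal libraries of its sex and genotype, although the highest female normal library, replicate 2, came near. The knock-in call was lost in 9 of 21 omissions of a library, with adjusted p up to 0.150 (without normal replicate 2), and in 4 of 13 other settings.

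Its partner Nop58 had the smallest mean change of the 3 box C/D genes. In wild-type males it was at 46.5, 54.0 and 58.0 CPM in normal colon and at 59.9, 67.9 and 72.7 in tumours, which do not overlap, with a difference that missed the threshold (0.34, SE 0.18, adjusted p = 0.159). In knock-in males normal values of 37.8, 47.3 and 54.1 CPM stood against 63.3, 77.8 and 80.9 in tumours (0.67, SE 0.18, adjusted p = 0.0159). In wild-type females 56.7, 58.6 and 94.97 CPM stood against 84.4, 91.3 and 110, with replicate 2 of normal colon inside the tumour range (0.44, SE 0.18, adjusted p = 0.0496). That last call was lost in 17 of 21 omissions of a library, with adjusted p up to 0.225 (without normal replicate 1), and in 8 of 13 other settings. The knock-in call was lost without normal replicate 3 (0.0816) or tumour replicate 2 (0.0721) and in 4 of 13 other settings. Fbl, the methyltransferase of the particle, rose by 0.59 in wild-type male and 1.14 in wild-type female tumours (adjusted p = 0.00289 and 3.74e-06), and in knock-in males its difference was 0.03 (adjusted p = 0.898).

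The box H/ACA set has 4 core proteins. Nhp2, which binds the guide RNA together with its partners, had the largest mean change. It was at 18.1, 29.6 and 35.2 CPM in wild-type male normal colon and at 41.9, 47.6 and 52.5 in tumours (0.78, SE 0.21, adjusted p = 0.00771), and in wild-type females at 19.5, 23.5 and 26.04 against 50.6, 51.6 and 68.5 (1.31, SE 0.21, adjusted p = 6.13e-05). Knock-in male tumours, at 33.5, 44.1 and 48.6 CPM, also lay above all 3 of their normal libraries, at 23.7, 27.6 and 33.1, with a difference just outside the threshold (0.58, SE 0.21, adjusted p = 0.0542).

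Nop10, the smallest of the 4 proteins, changed least on average. It was at 14.7, 18.3 and 19.8 CPM in wild-type male normal colon and at 22.7, 23.0 and 25.9 in tumours (0.44, SE 0.17, adjusted p = 0.0475). The call was lost in 18 of 21 omissions of a library, with adjusted p up to 0.205 (without normal replicate 3), and in 3 of 13 other settings. In knock-in males 16.2, 18.02 and 18.2 CPM stood against 22.7, 22.8 and 24.1, without overlap (0.41, SE 0.16, adjusted p = 0.0845). In wild-type females 18.7, 20.6 and 20.7 CPM stood against 19.5, 24.8 and 35.7, where 1 tumour library fell among the normal ones (0.41, SE 0.17, adjusted p = 0.0508). The 3 differences of Nop10 were thus alike in size and fell on both sides of the threshold. Dkc1, the pseudouridine synthase, rose in knock-in males (0.63, adjusted p = 0.0244) and wild-type females (0.51, adjusted p = 0.0309) and was 0.20 higher in wild-type males (adjusted p = 0.432). Gar1 rose in wild-type males (0.92) and wild-type females (1.42), and was 0.20 higher in knock-in males (adjusted p = 0.438).

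**Figure D3:**
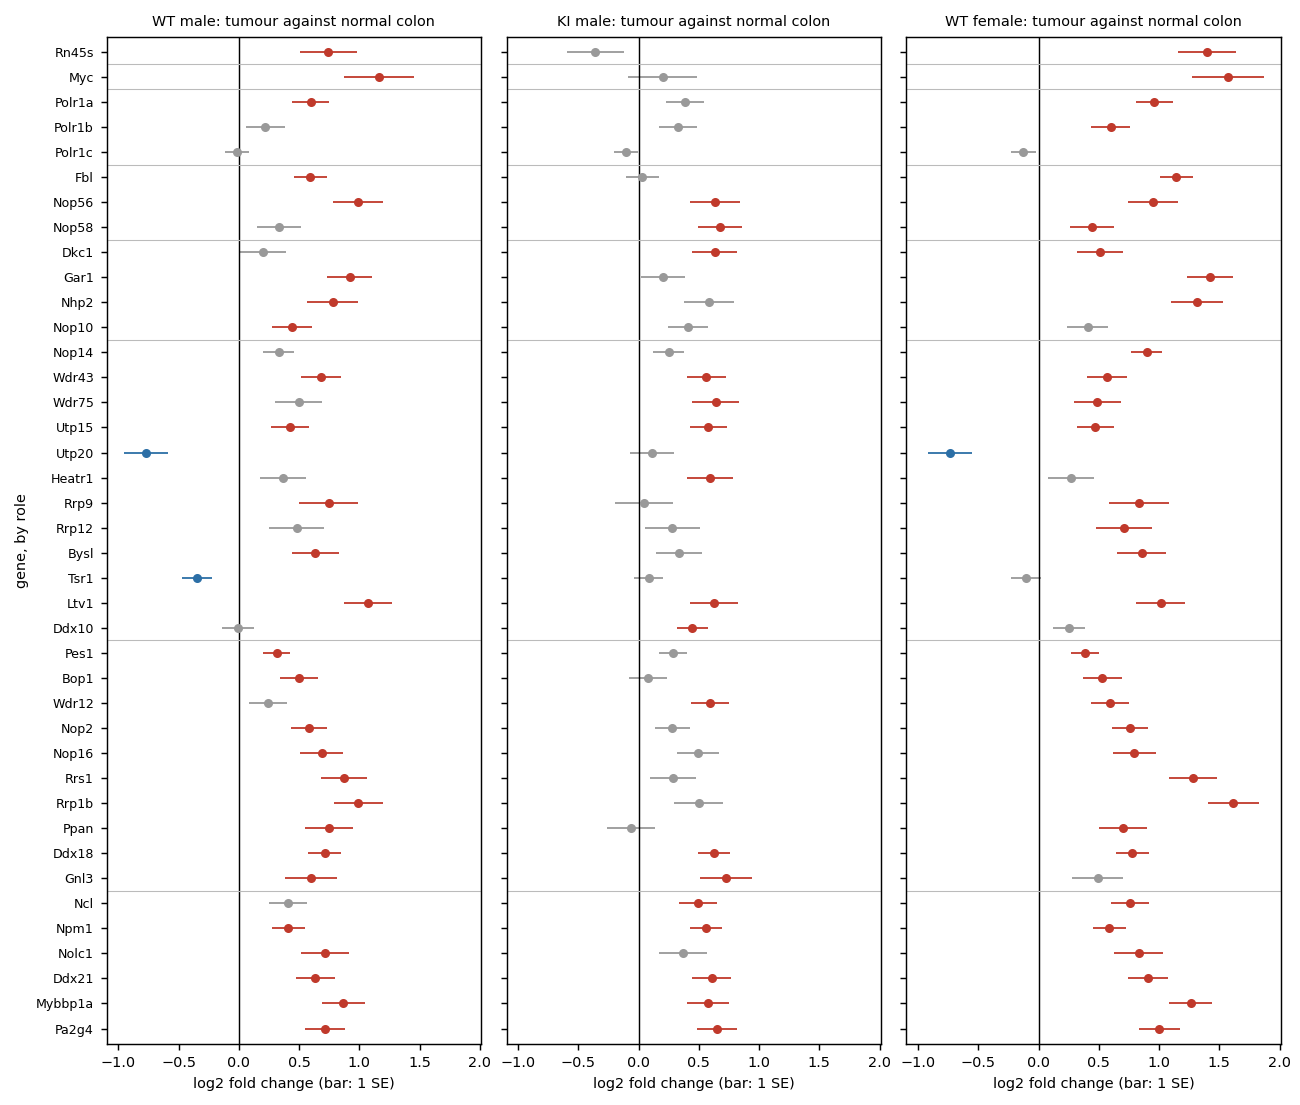
Log2 fold changes of the 40 members, tumour against normal colon, in wild-type males, knock-in males and wild-type females, with bars for 1 SE. Red marks members that rose, blue those that fell and grey those that did not pass the test. Most points lie right of 0 in each panel, Utp20 lies left of 0 in both wild-type panels, and Rn45s and Myc lie farther right in the wild-type panels than in the knock-in one.

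The 12 small-subunit processing factors were the most mixed class: 5 rose and 2 fell in wild-type males, 6 rose and none fell in knock-in males, and 8 rose and 1 fell in wild-type females. Ltv1, which helps late small-subunit precursors mature and leave the nucleus, had the largest mean rise. Wild-type male normal libraries held 18.2, 22.3 and 26.6 CPM and tumours 38.4, 48.4 and 53.8 (1.07, SE 0.20, adjusted p = 0.00058). Knock-in male normal libraries held 20.9, 21.5 and 33.6 CPM and tumours 33.99, 39.6 and 43.4 (0.62, SE 0.20, adjusted p = 0.0348). Wild-type female normal libraries held 19.2, 19.8 and 28.5 CPM and tumours 37.4, 47.8 and 50.9 (1.02, SE 0.20, adjusted p = 0.000454). The libraries did not overlap in any of the 3, and the knock-in gap was narrow. The knock-in call was lost in 9 of 21 omissions of a library, with adjusted p up to 0.155 (without normal replicate 2), and in 7 of 13 other settings. Wdr43 and Utp15, components of the small-subunit processome that acts on the nascent precursor, also rose in each comparison, by 0.42 to 0.68.

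Utp20, a very large scaffold protein of the same processome, went the other way in wild-type mice. It was at 137, 142 and 161 CPM in wild-type male normal colon and at 73.9, 83.5 and 99.1 in tumours (-0.77, SE 0.18, adjusted p = 0.00339). In wild-type females it was at 172, 192 and 287 CPM in normal colon and at 121, 131 and 139 in tumours (-0.73, SE 0.18, adjusted p = 0.00274). In both sexes every tumour library lay below every normal library. The female call was lost without the 3 libraries numbered 152 and above, which leaves 1 tumour library (-0.61, adjusted p = 0.109). In knock-in males 94.2, 104 and 148 CPM stood against 110, 122 and 141, ranges that overlap (0.11, SE 0.18, adjusted p = 0.7).

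Tsr1, which acts in the late maturation of the small subunit, was lower in wild-type male tumours. Its normal libraries held 49.6, 55.6 and 57.2 CPM and its tumours 40.8, 41.9 and 44.8, without overlap (-0.35, SE 0.12, adjusted p = 0.0336). The call was lost without normal replicate 2 or 3 or tumour replicate 2 or 3, with adjusted p values up to 0.117. It was also lost in 3 of 13 other settings. In knock-in males 41.2, 51.0 and 52.1 CPM stood against 47.2, 49.2 and 56.4 (0.08, SE 0.12, adjusted p = 0.649), and in wild-type females 56.5, 64.7 and 72.0 against 53.1, 61.0 and 65.6 (-0.11, SE 0.12, adjusted p = 0.495). Both of these pairs of groups overlapped.

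Of the 10 large-subunit factors, 9 rose in tumours of wild-type males, 3 in those of knock-in males and 9 in those of wild-type females, and none fell. Rrp1b, a nucleolar protein of the early large-subunit precursor, had the largest mean change of all 40 members. Wild-type males had 18.3, 25.4 and 26.1 CPM in normal colon and 43.2, 45.3 and 51.2 in tumours (0.99, SE 0.20, adjusted p = 0.0012). Wild-type females had 12.1, 12.5 and 22.4 CPM in normal colon and 39.98, 47.6 and 55.5 in tumours (1.62, SE 0.21, adjusted p = 7.06e-06). Knock-in males had 19.99, 23.4 and 27.7 CPM in normal colon and 30.1, 30.9 and 39.1 in tumours, again without overlap, and the difference missed the threshold (0.50, SE 0.20, adjusted p = 0.0863).

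Pes1 forms the PeBoW complex with Bop1 and Wdr12 and changed least in this class. In wild-type males it went from 62.7, 62.7 and 63.1 CPM to 72.2, 79.2 and 83.5 (0.31, SE 0.11, adjusted p = 0.0392). With the replicate number as a block, which for these 2 groups was taken as the paired fit, the adjusted p was 0.0807. The call was also lost in 9 of 21 omissions of a library, with adjusted p up to 0.120 (without tumour replicate 2). In wild-type females 54.1, 59.1 and 62.7 CPM stood against 71.7, 72.7 and 85.4 (0.39, SE 0.11, adjusted p = 0.00913), which missed the threshold without normal replicate 1 (0.0510) or tumour replicate 1 (0.0556). In knock-in males 54.9, 60.4 and 68.5 CPM stood against 62.4, 80.3 and 81.4, with overlap (0.29, SE 0.11, adjusted p = 0.0797). The partners differed in where they passed the test. Bop1 rose in the wild-type males (0.50) and females (0.53), and Wdr12 in the knock-in males (0.59) and wild-type females (0.59). Ddx18, an RNA helicase, rose by 0.71 (wild-type males), 0.63 (knock-in males) and 0.78 (wild-type females).

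Nucleolar chaperones and factors linked to transcription were called most evenly, with 5 of 6 higher in wild-type males, and 5 and 6 in the knock-in males and wild-type females. Mybbp1a, a nucleolar protein that binds Myb and takes part in ribosomal RNA synthesis, changed most. It was at 117, 147 and 155 CPM in wild-type male normal colon and 228, 249 and 288 in tumours (0.87, SE 0.18, adjusted p = 0.00103). In knock-in males 109, 143 and 154 CPM stood against 162, 210 and 232 (0.57, SE 0.17, adjusted p = 0.0282), and in wild-type females 82.0, 89.4 and 133 against 231, 233 and 265 (1.26, SE 0.18, adjusted p = 1.48e-05). The tumour libraries were above the normal ones in all 3 pairs of groups. The knock-in call was lost in 6 of 21 omissions of a library, with adjusted p up to 0.149 (without normal replicate 2), and in 4 of 13 other settings.

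Npm1, nucleophosmin, a histone and ribosome chaperone, changed least in this class and rose in each comparison. Wild-type males had 174, 198 and 224 CPM in normal colon and 252, 269 and 272 in tumours (0.41, SE 0.13, adjusted p = 0.0237). Knock-in males had 165, 202 and 221 against 259, 276 and 329 CPM (0.56, SE 0.13, adjusted p = 0.00947), and wild-type females 200, 211 and 223 against 287, 321 and 346 CPM (0.59, SE 0.13, adjusted p = 0.00146). No library overlapped. The call in wild-type males was lost without normal replicate 2 (0.0534) or 3 (0.123) or tumour replicate 1 (0.0762) or 3 (0.0635), and the call in knock-in males without normal replicate 3 (0.0555) or tumour replicate 2 (0.0627) or with only the compared groups (0.0831). Ncl, nucleolin, rose in knock-in males (0.49, adjusted p = 0.0347) and wild-type females (0.76, adjusted p = 0.000638) and reached 0.41 in wild-type males (adjusted p = 0.0502). Nolc1, which shuttles small nucleolar particles, rose in wild-type males (0.72) and females (0.83) and was 0.37 higher in knock-in males (adjusted p = 0.195).

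A list of 123 other ribosome biogenesis genes moved like the members, with smaller medians. In wild-type males 54 rose and 2 fell (median 0.36), in knock-in males 34 rose and 2 fell (0.26), and in wild-type females 68 rose and 5 fell (0.41). The gene with the largest mean rise was Utp18, of the small-subunit processome, at 0.76, 0.64 and 1.12. Sbds, which acts in the release of a factor from the late large subunit, had the largest mean fall, at -0.62, -0.54 and -0.87, and passed the test in all 3 comparisons. The share with a CACGTG in the promoter window was 19 of 100 matched genes (19%).

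Genes of the ribosome's own proteins did not move with the biogenesis factors. Of 77 cytosolic ribosomal protein genes tested, out of 79 listed, none rose and 4 fell in wild-type males, none rose and 8 fell in knock-in males, and 2 rose and 14 fell in wild-type females. Their medians were -0.13, -0.15 and -0.18 log2 units. Ribosomal protein genes are short and have many pseudogene copies, and how reads shared with copies were counted is not given in the sources used here. In the promoter windows CACGTG was present in 6 of 58 matched genes (10.3%). Other known Myc targets outside ribosome production, 24 genes, had 10 higher and none lower in wild-type males, 7 and none in knock-in males, and 18 and 2 in wild-type females. Their largest mean rise was in the amino acid transporter gene Slc7a5 (1.29, 0.84 and 1.87, of which the knock-in value did not pass, adjusted p = 0.154).

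**Figure D4:**
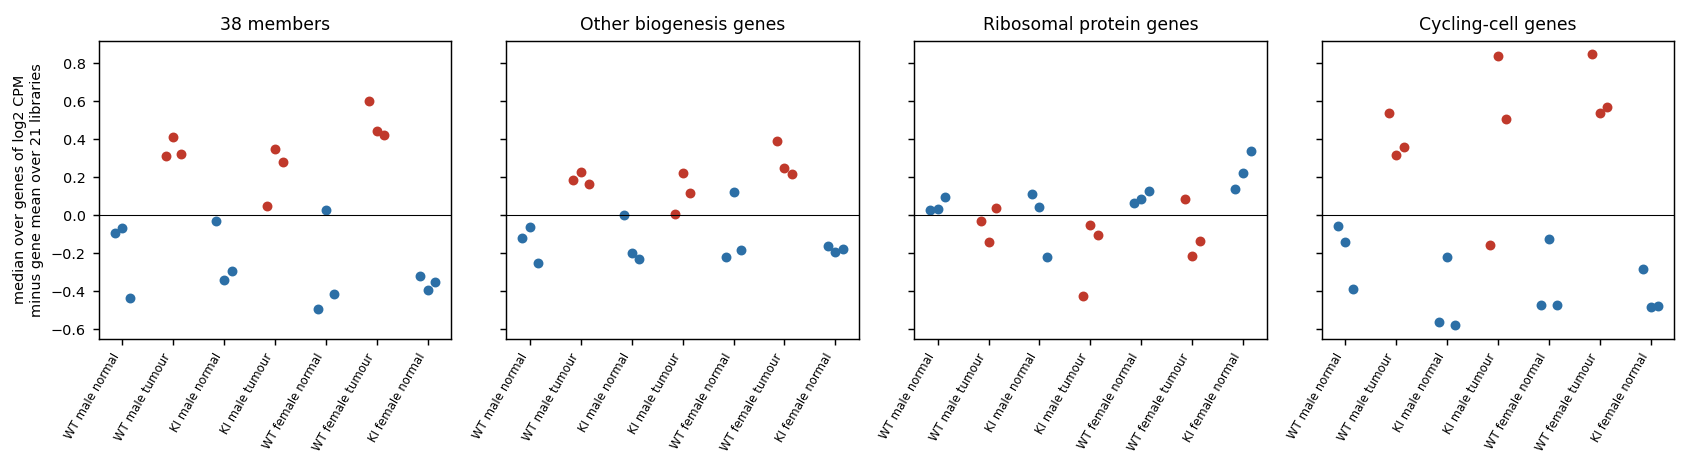
Median over genes of log2 CPM minus the gene's mean over 21 libraries, with 1 point per library (blue normal colon, red tumour), for the 38 members other than Rn45s and Myc, the 123 other biogenesis genes, the ribosomal protein genes and the cycling-cell genes. For the 38 members every tumour library lies above every normal library, the closest being knock-in male tumour replicate 1 at 0.05 and wild-type female normal replicate 2 at 0.03. No such separation appears in the other panels. For the other biogenesis genes, knock-in male tumour replicates 1 (0.008) and 3 (0.117) lie below wild-type female normal replicate 2 (0.122). Knock-in male tumour replicate 1 is also the lowest tumour library for cycling-cell genes, at -0.16. It lies there below some normal libraries, the highest being wild-type male normal replicate 1 at -0.06.

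Tumours of the 2 genotypes were compared directly in males. Against wild-type tumours, 3 members were lower in knock-in tumours and none was higher, where 5.23% and 9.3% of all genes were. The count of lower members does not set the members apart from other genes. The median member was 0.18 lower. Myc averaged 57.2 ± 7.22 CPM in knock-in tumours and 112 ± 14.1 CPM in wild-type tumours (SD, n = 3), with no overlap, a log2 difference of -0.97 (SE 0.29, adjusted p = 0.0343). Gar1 was at 11.7 ± 2.03 against 17.1 ± 0.51 CPM (SD, n = 3; log2 difference -0.55, SE 0.18, adjusted p = 0.0488). Ppan, a large-subunit factor, was at 23.8 ± 1.84 against 37.5 ± 3.05 CPM (SD, n = 3; -0.65, SE 0.20, adjusted p = 0.0372). Libraries of these 3 genes did not overlap between the genotypes. Counting all members whatever their p, 14 of 40 lay in every knock-in tumour library below every wild-type one, where 16.1% of all genes did. Another 3 lay above in the same way, and the share of all genes in that direction is not given here.

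These 3 calls stand near the threshold. None was made without wild-type male tumour replicate 1, 2 or 3 or knock-in male tumour replicate 2, 1 was made without knock-in male tumour replicate 1, 6 without knock-in male normal replicate 2, and none with GC and length offsets. For Myc the adjusted p was 0.0772 with a covariate for libraries with numbers from 152 up, 0.0781 without them and 0.0580 with GC and length offsets, while the difference lay between -1.01 and -0.86 over the alternatives other than the omission of single libraries. The smooth muscle markers had a median 1.22 log2 units higher in knock-in tumours, with none of 10 called and the summed levels given above, and their part was not tested.

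Whether the tumour effect itself differed by genotype was tested as an interaction in males, and no member passed edgeR's test, where 0.37% of all genes were called lower and 1.14% higher. At an unadjusted p under 0.05 there were 9 members, and DESeq2 and limma voom called 2 each. The shares of all genes at that unadjusted threshold or by those tools are not given, here or for the comparisons below. Whether the members stand apart from other genes therefore cannot be read from such counts. Of those 9, Rn45s, Myc, Fbl, Gar1, Rrs1 and Ppan had the lower tumour difference in knock-in males and Utp20, Tsr1 and Ddx10 the higher one. In knock-in males the differences of the first 6 lay between -0.36 (Rn45s) and 0.29 (Rrs1), with Ppan at -0.06, and none passed the test there. For Rn45s the difference of effects was -1.10 (SE 0.33, adjusted p = 0.073), for Myc -0.96 (SE 0.40, adjusted p = 0.156) and for Utp20 0.88 (SE 0.26, adjusted p = 0.0666). Without knock-in male normal replicate 2, edgeR called 4 members, and Rn45s reached -1.34 (adjusted p = 0.0141), whereas without replicate 3 of that group it was -0.67 (adjusted p = 0.205). In 1 of 12 other settings the Rn45s interaction passed, with an adjusted p of 0.0181. A difference between the genotypes in the tumour effect on the members was therefore not detected by edgeR with all libraries, at 3 a group. This does not hold for every tool or omission, and a p that misses the threshold does not show equal effects.

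The tumour effect did not pass the test of a difference between the sexes for any member in wild-type mice, where 0.929% of all genes were called higher and 0.195% lower in females. There were 3 members at an unadjusted p under 0.05, namely Fbl (0.55), Nop14 (0.57) and Rrp1b (0.62), each with the larger rise in females, and limma voom called 5. Female and male wild-type tumours compared directly gave 0 called members against 0.402% higher and 0.458% lower among all genes. In that comparison 6 members had an unadjusted p under 0.05, Nop58, Dkc1, Utp20, Heatr1, Tsr1 and Wdr12, all higher in females, by 0.42 to 0.61, and DESeq2 called 3 and limma voom 6.

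In males no member was called between the genotypes in normal colon. Between knock-in and wild-type male normal colon edgeR called 0 members, where 0.00628% of all genes tested were higher and 0.00628% lower, DESeq2 and limma voom also called 0, and Rn45s alone had an unadjusted p under 0.05 (0.52, adjusted p = 1). Its 3 knock-in libraries overlapped the wild-type ones.

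In females 4 of 40 members differed by genotype in normal colon, 1 higher and 3 lower in the knock-in. Of all genes 8.97% were higher and 7% lower, so these counts do not set the members apart from other genes. Utp20 was at 111, 117 and 135 CPM in knock-in and 172, 192 and 287 CPM in wild-type colon (-0.84, SE 0.18, adjusted p = 0.00536). Heatr1, another processome scaffold that also serves RNA polymerase I transcription, was at 55.5, 58.0 and 64.0 against 76.0, 81.9 and 143 CPM (-0.76, adjusted p = 0.0128). Nop58 was at 40.3, 45.5 and 50.3 against 56.7, 58.6 and 94.97 CPM (-0.62, adjusted p = 0.0263). Each of the 3 lay lower without overlap, as 5 of 40 members and 18.2% of all genes did, and in each the highest value was wild-type replicate 2, the library that stands apart. Fbl was higher, with overlap (0.42, adjusted p = 0.0492). Without that library 2 members were called, without knock-in replicate a 1, and without knock-in replicate b 2. The call of Fbl was lost in 14 of 21 omissions of a library, with adjusted p up to 0.173, and in 5 of 11 other settings. Myc did not pass (0.17, adjusted p = 0.737). Rn45s, with shares of 4.85%, 4.88% and 5.96% in knock-in colon, lay above the 3 wild-type libraries and stood just outside the threshold (0.69, adjusted p = 0.0527). It passed in 7 of 10 other settings, with differences of 0.68 to 0.78 over the 10 and adjusted p between 0.00740 and 0.0785, and in 3 of 21 omissions of a library (knock-in male normal replicates 2 and 3 and wild-type male normal replicate 3). The authors' deposited table gives 0.70 (adjusted p = 0.0177).

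The comparison of the sexes in wild-type normal colon shares those female libraries. Of the 40 members 1 was higher and 4 were lower in females, against 5.74% and 10.2% of all genes, which does not set the members apart from other genes. Rn45s was lower by more than its spread, with shares of 2.84% to 3.18% in females and 4.90% to 8.26% in males (-1.05, SE 0.24, adjusted p = 0.00673). Fbl (-0.58), Gar1 (-0.69) and Nop14 (-0.45) were lower and Utp20 was higher (0.56, SE 0.18, adjusted p = 0.041). The count was 1 without female replicate 1, 2 without male replicate 1 or 2, and 8 without male replicate 3, and Utp20 missed the threshold without female replicate 2 (0.31, adjusted p = 0.273). Myc was 0.73 lower in females (SE 0.29, adjusted p = 0.0943).

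Wild-type female normal colon also differed in other cell types. Against wild-type males, 4 of 4 endothelial, 3 of 6 fibroblast and 3 of 10 smooth muscle markers were lower, and knock-in female normal colon was higher than it in 3, 3 and 5 of them. Summed endothelial levels were 46.0 to 73.0 CPM in wild-type female, 99.2 to 138 in wild-type male and 103 to 118 in knock-in female normal colon. Fibroblast levels were 1125 to 1368, 2366 to 2657 and 2171 to 2744 CPM in the same order, and smooth muscle levels 2220 to 5108, 3222 to 10686 and 7774 to 10820 CPM. None of these markers was at 0 in any library. Their part in the members' differences between normal groups was not tested.

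Between knock-in female and knock-in male normal colon no member passed edgeR's test, where 0.182% of all genes were higher and 0.402% lower. There were 7 members at an unadjusted p under 0.05, all lower in females, Rn45s (-0.87, adjusted p = 0.0877), Fbl, Gar1, Nop2, Rrs1, Rrp1b and Ppan, and DESeq2 called 2 and limma voom 1. No member passed the test of a difference between the sexes in the genotype effect in normal colon, where 1.76% of all genes were called higher and 0.778% lower. Nop14 (0.47) and Heatr1 (-0.69) had an unadjusted p under 0.05, and a p that misses the threshold does not show equal effects.

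The authors' deposited table, made with DESeq2, lists 29 members higher and 2 lower in wild-type male tumours, where 15.3% and 17.5% of its genes were, and 19 higher and none lower in knock-in male tumours, where 11.5% and 11.6% were. For tumours of the 2 genotypes the authors' deposited table has 1 member higher and 5 lower in the knock-in, against 10.6% and 8.2% of its genes. For Myc the authors' deposited table gives log2 differences of 1.16 for wild-type males (adjusted p = 0.000347), 0.20 for knock-in males (0.645) and -0.99 between their tumours (0.00729). It was made from the same libraries and is no independent evidence.

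Overlapping genes limit some values. Exons of 12 members overlap exons of a gene on the opposite strand, and those of Nop56, Gnl3 and Ncl hold small nucleolar RNA genes on their own strand, while the strand setting of the authors' counting is not given in the sources used here. For the 12, reads of the member and of its opposite neighbour could not be told apart if strand was not used. Of the genes printed with values in every library, these are Nop56, Nhp2, Tsr1, Rrp1b and Mybbp1a.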

How the data were processed

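Libraries were made from total RNA after ribosomal RNA removal with RNase H and random-hexamer priming, per the labels' protocols. Trimmomatic, HISAT2, featureCounts, DESeq2 and mm10 are named in the submitters' processing notes, without versions. The deposited values are raw counts per gene by the authors, with the annotation and strand setting not given in the sources used here. A second table holds the authors' deposited log2 fold changes and adjusted p-values, of which 21 per-library columns were not used. Among the columns of raw counts, 2 of the knock-in female group share 1 header and were used as replicates a and b.

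Counts were tested with edgeR 4.0.16 (R 4.3.3): TMM scaling, filterByExpr, robust quasi-likelihood F test, two-sided, all 21 libraries in 1 fit with 1 coefficient for each of 7 groups, Benjamini-Hochberg adjustment and a threshold of 0.05. SEs come from the fold change and the F statistic. Alternatives were other scalings, Rn45s taken out before scaling, other filters, DESeq2 1.42.0, a fit of only the compared groups, limma 3.58.1 voom with quality weights, the replicate block (18 numbered libraries), the libraries numbered 152 to 154 as a covariate, and each library left out. GC and length offsets, and leaving out those 3 libraries, were added after seeing the data. Same-numbered wild-type male libraries deviated together (r = 0.169, 0.174 and 0.215 over 15936 genes). The block was therefore taken as the paired fit for wild-type male tumour against normal colon, a hint from the data since the labels do not state a pairing. The hint is weak, as same-numbered libraries that cannot share an animal reached 0.461 (replicate 1, knock-in and wild-type male normal colon) and 0.166 (replicate 2, wild-type female and male normal colon). No 2 libraries of a group agreed within sampling noise (lowest chi-square per degree of freedom 6.98 over 21 pairs), and Y-linked counts matched the labelled sex in 21 of 21.

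On simulated data for wild-type male tumour against normal colon (15720 genes, 200 changed), 51% of genes changed by 1 log2 unit and 84.8% of those changed by 2 were recovered, with 1 false call. For the genotype interaction in males, 52% of the same 200 genes were recovered, with 7 false calls. The 200 genes had been changed by 1 or 2 log2 units in wild-type male tumours alone. The median tumour difference of the members, 0.43 to 0.76 over the 3 comparisons, was smaller than any planted change. These shares therefore do not give the recovery for the members. The members and gene lists were chosen with earlier results of these data known. Values in every library are printed for Rn45s, Myc and, in each class, the members with the highest and lowest mean tumour change. Of the other lists, the genes with the largest mean change in each direction could be named. Promoters are RefSeq's for GRCm38.p6, and gene overlaps are from GENCODE vM21 on GRCm38.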

Additional observations from a re-analysis of the deposited data

How the results depend on the processing

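Counts of called members within 1.5 times the edgeR count were obtained in wild-type male and wild-type female tumour comparisons under every alternative that keeps the single libraries, and no member was called between male normal groups under any. The DESeq2 Wald test gave 2 called members in the genotype interaction, 2 in knock-in female against male normal colon, 7 in knock-in against wild-type female normal colon, 6 between the male tumours and 3 between wild-type tumours of the sexes. With limma voom the numbers were 2 in the genotype interaction, 5 in the sex interaction, 1 in knock-in female against male normal colon, 9 in knock-in against wild-type female normal colon, 11 in knock-in male tumours against normal colon, 15 in wild-type female against male normal colon and 6 between wild-type tumours of the sexes. With only the compared groups they were 1 in knock-in male tumours, 2 in knock-in against wild-type female normal colon, 1 in wild-type female against male normal colon and 4 between wild-type tumours of the sexes. That last comparison gave 1 with library totals, with a mean of at least 50 counts or with a covariate for libraries with numbers from 152 up. The male tumours gave 1 with that covariate and 0 with GC and length offsets. Without the 3 libraries numbered 152 and above knock-in male tumours gave 4. The replicate block gave 1 member between the male tumours and 12 in knock-in male tumours, and GC and length offsets with the block gave 10 in knock-in male tumours, 0 between the male tumours and 3 in wild-type female against male normal colon. The numbers were taken as pairs only in the wild-type male groups, where each library correlated best with its own number. In that comparison the block gave 28 and lost Pes1. Among the members printed with values in every library the block changed no other call there. The cause was not tested for any of these.

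Leaving out 1 library gave 18 to 32 called members in wild-type males, 25 to 37 in wild-type females, 1 to 20 in knock-in males, 0 to 6 between the male tumours, 0 to 4 in the genotype interaction, 0 to 3 in knock-in female against male normal colon, 1 to 6 in knock-in against wild-type female normal colon, 1 to 8 in wild-type female against male normal colon and 0 to 1 between wild-type tumours of the sexes. The ranges that crossed 0 were -0.21 to 0.19 for Myc between male normal groups, -0.10 to 0.60 for Myc between female normal groups, -0.048 to 0.41 for Myc in knock-in male tumours, -0.082 to 0.61 for Myc and -0.028 to 0.60 for Rn45s in the difference of genotype effects between the sexes, -0.62 to 0.067 for Rn45s, -0.027 to 0.14 for Tsr1 and -0.061 to 0.28 for Utp20 in knock-in male tumours, -0.046 to 0.0084 for Polr1c in wild-type males, and for the median member -0.13 to 0.038 between male normal groups, -0.14 to 0.14 between female normal groups, -0.13 to 0.12 in the difference of genotype effects between the sexes and -0.28 to 0.027 in wild-type female against male normal colon.

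Signs near 0 also turned elsewhere. For Myc this gave -0.058 between female normal groups with GC and length offsets, 0.0035 and 0.00041 between male normal groups with a mean of at least 50 counts and with the replicate block, and 0.027 between wild-type tumours without the libraries numbered 152 and above. For Polr1c, GC and length offsets alone and with the replicate block gave 0.080 and 0.076 in knock-in males and 0.047 and 0.033 in wild-type males, and library totals gave 0.0088 in wild-type females and 0.021 in wild-type males. For Tsr1 in wild-type females the values were 0.040 with library totals, 0.013 with the covariate and 0.047 without the libraries numbered 152 and above. The median member was 0.049 with library totals and 0.070 with limma voom between female normal groups, and 0.086 and 0.075 with GC and length offsets, alone and with the block, in wild-type female against male normal colon. Leaving out the libraries numbered 152 and above keeps 1 wild-type female tumour library, which is then assumed to vary like the other groups. Every member had more than 3 counts in every library, the effect of depth on the results was not tested, and 3 libraries a group limit the precision.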

Other observations

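The network of proteins around Myc, 13 genes for its partners, antagonists and relatives, was called in both directions in tumours. Wild-type males had 2 higher and 4 lower (15.4% and 30.8%), against 16.5% and 19.3% of all genes tested. Knock-in males had 3 higher and 2 lower (23.1% and 15.4%), against 10.4% and 9.97%, and wild-type females 4 higher and 5 lower (30.8% and 38.5%), against 25% and 24%. With 13 genes, these shares do not set the list apart from other genes. Mycl, a relative of Myc that also binds E-boxes with Max, had the largest mean rise and passed the test in each, with log2 differences of 1.39, 0.81 and 2.63 in the same order (edgeR adjusted p = 0.000235, 0.0209 and 4.13e-07). Mxd1, which competes with Myc for Max and represses E-box genes, had the largest mean fall, at -0.97, -0.62 and -1.97 (adjusted p = 0.00155, 0.0394 and 1.11e-06). Both genes thus passed the test in knock-in males, where Myc itself differed by 0.20 (adjusted p = 0.644).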
